A study of Mus musculus with 6 samples.

Results

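Cholesterol synthesis was followed in mouse induced pluripotent stem cells (iPSCs), that is, somatic cells returned to pluripotency by reprogramming, through 7 genes: the transcription factor gene Srebf2 and the enzyme genes Hmgcs1, Idi1, Fdps, Sqle, Lss and Cyp51. They were taken by name from a count table of 24421 gene entries, and all 7 were found and passed the filter on low counts. The LDL receptor is not one of the 7 and is not reported here. The study compared 3 bulk RNA sequencing libraries of cells with the Srf gene deleted (SRFΔ/Δ, called SRF KO) with 3 libraries of cells labelled SRFf/f (called WT), f being the usual sign for a loxP-flanked allele. The libraries are named KO 1 to KO 3 and WT 1 to WT 3 after their replicate numbers. Serum response factor (SRF) is a transcription factor of cytoskeletal and immediate-early genes. Both kinds of cell were grown in medium with serum. The labels do not say how the deletion was made, how many clones each genotype stands for, or whether replicates are separate cultures, so p-values measure the spread between these libraries, which may be technical.

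Animal cells build cholesterol from acetyl-CoA. A first series of enzymes, the mevalonate pathway, makes the isoprene unit and joins it to farnesyl pyrophosphate, which also feeds side branches such as protein prenylation, dolichol and ubiquinone. A second series joins farnesyl units to squalene, oxidises and cyclises it to lanosterol, and trims lanosterol to cholesterol. The supply is held steady by SREBP2, the product of Srebf2: when membrane sterol is low, SCAP carries the precursor from the endoplasmic reticulum to the Golgi, where proteases release the part that enters the nucleus and acts on promoters of the enzyme genes and of Srebf2 itself, while INSIG proteins hold it back when sterol is high.

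In GENCODE M21 (GRCm38) all 7 are protein-coding genes. Srebf2 lies at chr15:82147181-82205379, Sqle at chr15:59315077-59331192, Hmgcs1 at chr13:119690379-119708260, Idi1 at chr13:8885501-8892451 and Lss at chr10:76531588-76557138, all on the plus strand. Fdps lies at chr3:89093588-89101959 and Cyp51 at chr5:4081145-4104746, on the minus strand.

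The sequence on which SREBP2 acts is the sterol regulatory element, usually next to a CCAAT box (bound by NF-Y) or a GC box (bound by Sp1). RefSeq promoters (GRCm38.p6) were matched for 5 of the 7 genes: Srebf2, Hmgcs1, Idi1, Lss and Cyp51. Fdps and Sqle had no entry. In the 250 bases before each start, 4 motifs were searched on both strands. They were TCACCCCA, taken as the core of the sterol regulatory element, the CCAAT box and the GC box written as GGGCGG. The last was the CArG box, to which SRF binds. These motifs are general knowledge, but the letters were settled with the windows in view. TCACCCCA was found in 2 of the 5 windows, those of Hmgcs1 and Srebf2, and in 1.34% of all 32851 promoter windows of that length. CCAAT was found in 5 of 5 and in 33.8% of all windows, and GGGCGG in 5 of 5 and in 32.7% of all. These counts rest on RefSeq starts. The CCAAT and GGGCGG matches of Idi1 and the CCAAT match of Cyp51 lay inside the gene as annotated in GENCODE M21. The CArG box was found in 0 of 5 and in 1.47% of all. Among the 11 other enzyme genes with a window, 0 held TCACCCCA. Of all 16 member and enzyme genes with a window, CCAAT and GGGCGG were each found in 15, counted by gene. Pmvk and Dhcr7 had several windows, any of which could hold the match, whereas the shares of all are per window. A match describes letters only and is no evidence of binding in these cells. Apart from the CArG box, only exact letters were searched. A window without TCACCCCA is therefore not shown to lack a sterol regulatory element.

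Sequence from 3 of the windows is shown because they belong to the gene with the largest fall (Hmgcs1), the transcription factor gene (Srebf2) and a gene lower under every setting tried whose window lacks TCACCCCA (Lss). They are on the plus strand, at chr13:119690101-119690350 for Hmgcs1, chr15:82147019-82147180 for Srebf2 and chr10:76531355-76531587 for Lss, and stop where either RefSeq or GENCODE M21 places the first transcribed base. Capitals mark TCACCCCA and CCAAT, the latter also as its reverse complement ATTGG.
Hmgcs1: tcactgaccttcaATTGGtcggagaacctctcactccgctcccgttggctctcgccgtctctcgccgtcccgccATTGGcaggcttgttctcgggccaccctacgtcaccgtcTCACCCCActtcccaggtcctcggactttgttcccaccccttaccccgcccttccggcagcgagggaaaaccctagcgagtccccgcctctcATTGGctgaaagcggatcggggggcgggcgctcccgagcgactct
Srebf2: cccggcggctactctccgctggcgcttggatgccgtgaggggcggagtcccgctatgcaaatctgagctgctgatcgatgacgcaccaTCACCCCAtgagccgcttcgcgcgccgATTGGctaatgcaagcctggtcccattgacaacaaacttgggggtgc
Lss: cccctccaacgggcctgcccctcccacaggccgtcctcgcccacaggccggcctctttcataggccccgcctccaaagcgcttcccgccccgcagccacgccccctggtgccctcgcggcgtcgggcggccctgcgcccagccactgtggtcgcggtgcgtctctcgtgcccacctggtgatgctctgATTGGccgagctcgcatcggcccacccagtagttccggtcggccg
TCACCCCA began 137 bases before the RefSeq start in Hmgcs1 and 162 bases before it in Srebf2. In Hmgcs1 it lay between matches to CCAAT at 176 and 45 bases, and in Srebf2 it was followed by one at 135 bases. The only CCAAT match of Lss began 62 bases before the start.

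Total counts were between 26321602 and 36680156 per library. Each of the 7 genes had between 2113 and 13609 counts in every library, so that counting error alone was at most 2.18% of a value. Levels are given as CPM, counts scaled to a common library size after TMM normalization. WT 2 stood apart from the other WT libraries: the chi-square per degree of freedom of its counts was 12.2 against WT 1 and 14.6 against WT 3, while the other pairs of replicates lay between 1.79 and 4.88. The deleted gene, Srf, was measured at 34.5 ± 4.14 CPM in the WT libraries and 3.97 ± 0.707 CPM in the KO libraries (SD, n = 3), the direction the labels give.

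Of the 7 genes, 6 fell in the knockout and none rose, at a Benjamini-Hochberg adjusted p under 0.05 from edgeR's quasi-likelihood test. Among all 14778 genes tested, 21.3% fell, 21.2% rose and 42.4% passed in either direction. The falls were modest: the 6 enzyme genes kept between 69.5% and 88.6% of their WT level, and the median log2 fold change of the 7 genes was -0.26, against -0.01 over all genes tested. Their summed level was between 1062 and 1084 CPM in the SRF KO libraries and between 1339 and 1350 CPM in the WT libraries. In 6 of the 7 every SRF KO library lay below every WT library, which was so for 26.5% of all genes tested, while 52.7% of all genes tested had no overlap in either direction. The members called lower numbered 7 without WT 2 and 4 without KO 3. In bulk RNA, fewer cells of one type and less RNA per cell cannot be told apart.

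**Figure D1:**
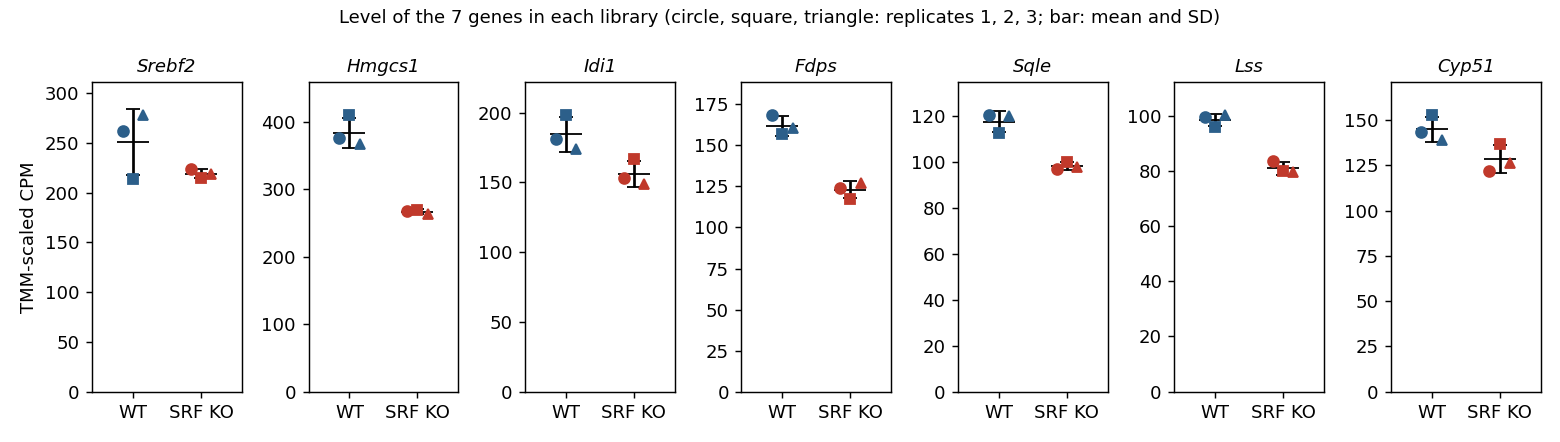
Each panel shows 1 gene, with TMM-scaled CPM on an axis from 0, WT libraries in blue and SRF KO libraries in red, and the mean and SD (n = 3) as black bars. The groups are apart in every panel but that of Srebf2, where WT 2 (214 CPM) is level with the lowest SRF KO library.

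Srebf2 encodes the regulator of the pathway. KO 1 to 3 held 224, 214 and 219 CPM, and WT 1 to 3 held 262, 214 and 278 CPM. The KO libraries were close together, and WT 2, level with KO 2, was the lowest of all 6, so the groups overlapped. At -0.20 on the log2 scale (SE 0.08, edgeR adjusted p 0.0684), Srebf2 was the 1 gene of the 7 that did not pass the threshold. Without WT 2 it passed, at -0.29 (edgeR adjusted p 2.6e-05). It also passed with no filter on low counts and with the replicate number as a block, and in no other setting tried.

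Hmgcs1 encodes the cytosolic HMG-CoA synthase, which makes HMG-CoA from acetyl-CoA and acetoacetyl-CoA at the entry of the pathway. KO 1 to 3 gave 269, 269 and 263 CPM, whereas WT 1 to 3 gave 376, 409.6 and 368 CPM. The lowest WT library lay 0.45 above the highest SRF KO library on the log2 scale, the widest gap of the 7 genes. Its log2 change, -0.52 (SE 0.05, edgeR adjusted p 1.2e-05), was the largest fall among them, and 7.66% of all genes tested had a more negative value.

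Among the members, Idi1 and Fdps act next. Idi1 encodes isopentenyl diphosphate isomerase, which interconverts the isoprene units, and had 153, 167 and 148 CPM in KO 1 to 3, with 181, 198 and 174 CPM in WT 1 to 3. KO 2 and WT 2 were the highest libraries of their groups, and KO 2 lay just below the lowest WT library. The log2 fold change was -0.24 (SE 0.06, edgeR adjusted p 0.0089). Leaving out KO 3 ended this call (-0.21, edgeR adjusted p 0.0569).

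Fdps encodes farnesyl pyrophosphate synthase, whose product stands at the fork between sterols and the other isoprenoids. Levels of 124, 117 and 127 CPM in KO 1 to 3 stood against 168, 157 and 160.4 CPM in WT 1 to 3, so that the groups were well apart. Its log2 fold change was -0.40 (SE 0.05, edgeR adjusted p 9.5e-05), after Hmgcs1 the largest fall of the 7 genes.

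The other 3 members act on squalene and lanosterol. Sqle encodes squalene epoxidase, a rate-limiting enzyme of the sterol branch. Its KO libraries lay at 96.9, 100.2 and 97.9 CPM and its WT libraries at 120.4, 113 and 120.2 CPM. No KO library reached the lowest WT library, WT 2, and Sqle changed by -0.26 on the log2 scale (SE 0.05, edgeR adjusted p 0.0013). Lss encodes lanosterol synthase, which closes the sterol rings, and showed 83.5, 79.8 and 79.4 CPM in KO 1 to 3, then 99.5, 95.9 and 100.05 CPM in WT 1 to 3. Both groups of Lss had an SD of 2.28 CPM, far less than the difference between them, and the log2 fold change was -0.28 (SE 0.05, edgeR adjusted p 0.00068).

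Cyp51 encodes lanosterol 14-alpha-demethylase, the first enzyme after lanosterol. Levels in KO 1 to 3 came to 122, 137 and 127 CPM, those in WT 1 to 3 to 143, 153 and 139 CPM. KO 2 lay just under the lowest WT library. Its log2 change, -0.18 (SE 0.06, edgeR adjusted p 0.0298), was the smallest of the called genes, and the call was lost without KO 1 (-0.14), KO 3 (-0.17) or WT 1 (-0.18). In GENCODE M21, 166 bases of its exons overlap those of Akap9 on the other strand, and since no strand setting is named, reads there cannot be told apart. Cyp51 is not alone in this. Exons of Fdps overlap those of Gm43738 on the same strand over 1124 bases. Overlaps with genes on the other strand cover 557 bases for Hmgcs1, 381 for Lss and 323 for Idi1. Akap9 as a whole had between 2551 and 3526 counts per library, and the gene overlapping Lss at most 1. The other overlapping genes had no entry among the counts.

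**Figure D2:**
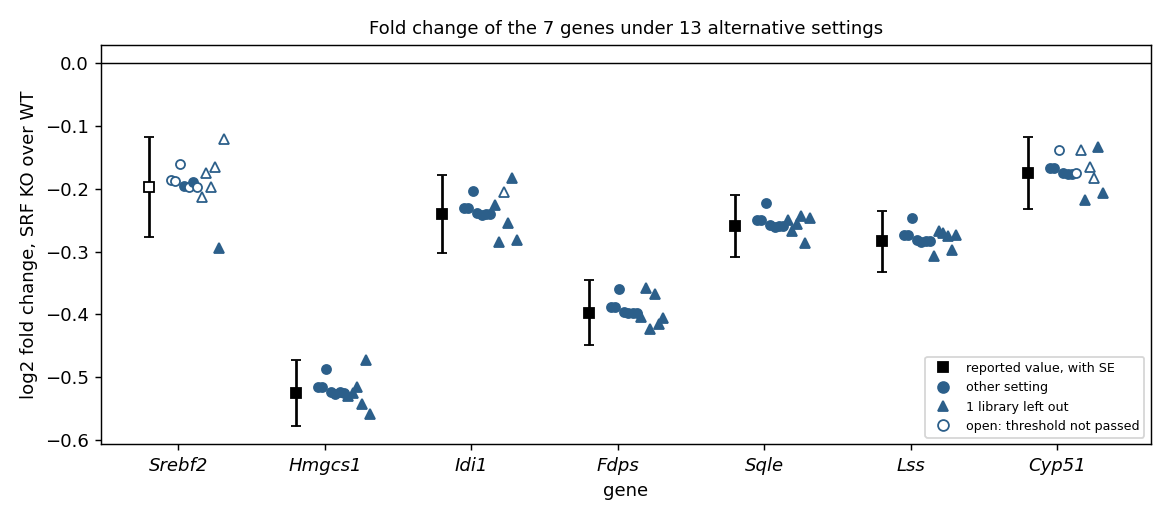
For each of the 7 genes, the log2 fold change of SRF KO over WT (vertical axis) is shown as reported with its SE (square) and for 13 alternatives (circles for other settings, triangles for fits without 1 library), filled where the threshold was passed. All values lie below 0; Hmgcs1, Fdps, Sqle and Lss are filled throughout.

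Levels were also divided by exon length, which for every gene joins all annotated transcripts. The order of genes therefore depends on the annotation and is only a rough comparison. Per kilobase, Hmgcs1 was the highest in WT at 83.7 ± 4.85 CPM per kb (SD, n = 3), followed by Idi1 at 52.6 ± 3.51. Fdps (38.4 ± 1.40), Srebf2 (34.95 ± 4.61) and Cyp51 (32.8 ± 1.58) came next, and Srebf2 did not differ from either neighbour beyond their spread. Sqle was at 21.2 ± 0.809 and Lss at 9.13 ± 0.212 CPM per kb, the latter over the longest exon length of the members, 10.8 kb. In SRF KO the order was Hmgcs1 at 58.1 ± 0.712, Idi1 at 44.5 ± 2.70, Srebf2 at 30.5 ± 0.674, Fdps at 29.2 ± 1.22, Cyp51 at 29.1 ± 1.74, Sqle at 17.7 ± 0.307 and Lss at 7.50 ± 0.212. Fdps and Cyp51 were indistinguishable there, and Fdps stood below Srebf2 rather than above it. The ranges of Fdps and Srebf2 again overlapped between libraries, but within each KO library Fdps was the lower.

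Within the groups the 7 genes did not follow one library. WT 2 was the highest WT library for Hmgcs1, Idi1 and Cyp51 and the lowest for Srebf2, Fdps, Sqle and Lss. Likewise KO 2 was the highest SRF KO library for Idi1, Cyp51, Hmgcs1 and Sqle and the lowest for Srebf2 and Fdps. The pairwise correlations of the deviations from the group means had a median of -0.41 over the 21 pairs of genes, as a description over 6 libraries that share their scaling. Over all 6 libraries, the genes closest to the members' mean pattern were Ascc1, Ift122, Prss42, Nuak2 and Fam169b, with Pearson correlations of log2 CPM of 0.999 for each to 3 digits. Of the 12337 genes ranked, 1085 had a correlation over 0.95, over the same 6 libraries.

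The steps next to the members were read from lists of pathway genes, whose counts are to be set beside the 21.3% of all genes that fell and the 21.2% that rose. Of the 4 other mevalonate genes, 3 fell, none rose and the median log2 fold change was -0.27. Acat2, the cytosolic acetoacetyl-CoA thiolase just before Hmgcs1, averaged 72.4 ± 1.29 CPM in the KO libraries against 88.3 ± 3.04 CPM in the WT libraries (SD, n = 3). It changed by -0.29 on the log2 scale (SE 0.05, edgeR adjusted p 0.00072). Pmvk and Mvk, the kinases of mevalonate, had log2 fold changes of -0.33 and -0.26. Mvd, the decarboxylase that makes isopentenyl diphosphate, was at -0.18 and did not pass (edgeR adjusted p 0.0993). The call of Mvk was lost without KO 1 (-0.24), KO 3 (-0.20), WT 1 (-0.24) or WT 3 (-0.24), and Mvd passed without WT 2 (-0.25) and with the replicate number as a block (-0.18).

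The 8 other sterol genes moved both ways, with 3 lower, 2 higher and a median of -0.12. Fdft1, squalene synthase, sits between Fdps and Sqle and gave 106, 103 and 104 CPM in KO 1 to 3 next to 128, 132 and 129 CPM in WT 1 to 3. Its log2 change, -0.31 (SE 0.05, edgeR adjusted p 0.00024), lay between those of Fdps and Sqle. The lower genes numbered 1 without KO 1, KO 3 or WT 1, and the higher genes 0 without KO 1 or KO 2 and 1 without any other library. Late in the pathway, Hsd17b7, a 3-ketosteroid reductase, and Ebp, the sterol isomerase, rose by 0.22 and 0.20, opposite to the members, while Nsdhl and Dhcr7 had log2 fold changes of -0.19 and -0.21. Sc5d, at 0.05, did not pass.

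The 18 enzyme genes listed are not the whole pathway. Ordered by reaction, a division chosen after the values were seen, 10 of the 11 genes up to and including Cyp51 fell and none rose, with a median of -0.28. Of the 7 genes after Cyp51, 2 fell and 2 rose, with a median of -0.05. The difference between the stretches was not tested. The genes up to and including Cyp51 called lower numbered 7 to 11 in fits without 1 library, and 8 under total-count scaling. The late genes called higher numbered 0 without KO 1 or KO 2 and 1 without any other library. Those lower numbered 0 without KO 1, KO 3 or WT 1, then 1 without KO 2 or WT 3, and 3 without WT 2. Ebp was lost without any 1 of the 6 libraries (0.15 to 0.23), Hsd17b7 without KO 1 (0.23) or 2 (0.18), Nsdhl without KO 1 (-0.17), KO 3 (-0.17) or WT 1 (-0.18), and Dhcr7 without any library but WT 2 (-0.23 to -0.16).

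**Figure D3:**
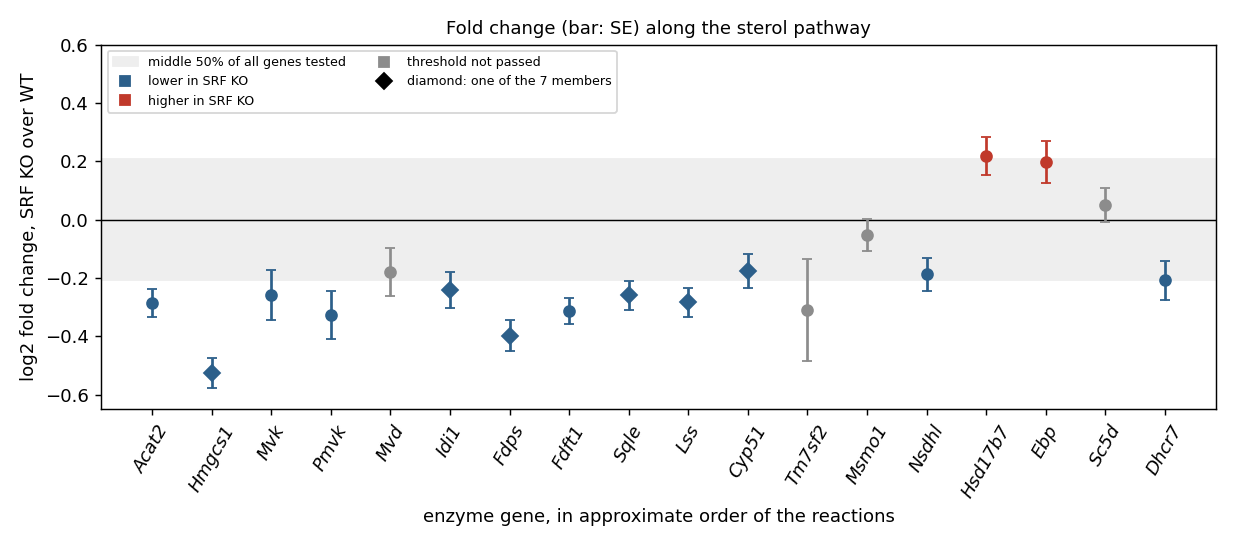
The log2 fold change of SRF KO over WT (vertical axis, bars SE) is plotted for 18 enzyme genes in approximate reaction order, diamonds for the members, blue for lower, red for higher and grey where the threshold was not passed. Points up to Cyp51 lie between -0.52 and -0.18, later ones between -0.31 and 0.22.

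Of 13 genes on the list of SREBP control, which includes the related gene Srebf1, 2 rose, 2 fell and 9 did not pass, with a median of 0.09. The shares, 15.4% each way, were below those of all genes tested. Among those that fell was Insig1, the sterol-regulated retention protein that is itself an SREBP2 target, with 171, 168 and 160.1 CPM in KO 1 to 3 beside 207, 188 and 204 CPM in WT 1 to 3. Its log2 fold change was -0.27 (SE 0.05, edgeR adjusted p 0.0019), close to the median of the members. Mbtps2, a protease that releases SREBPs, also fell (-0.22). Scap, the escort of the precursor, rose from 37.5 ± 4.85 to 52.8 ± 1.65 CPM (SD, n = 3), by 0.49 on the log2 scale (SE 0.08, edgeR adjusted p 0.0006). Erlin2, which takes part in sterol-regulated degradation, rose by 0.32. Ufd1, with a log2 fold change of 0.01, had the largest p of the list. Without WT 2, 4 genes of the list rose.

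Of 14 transport genes and other SREBP2 targets, 5 rose (35.7%) and 4 fell (28.6%), with a median of 0.11. Lrpap1, a chaperone of lipoprotein receptors, rose from 65.1 ± 2.56 to 149.6 ± 2.67 CPM (SD, n = 3), by 1.20 (SE 0.05, edgeR adjusted p 8.5e-09), and Vldlr, a lipoprotein receptor, rose by 0.63. Gramd1b and Gramd1a, related carriers of sterol between membranes, went opposite ways, at 0.36 and -0.52. Mmab, which shares a promoter region with Mvk, fell by 0.62, and Scarb1, the HDL receptor, fell by 0.36. Stard3 did not pass, at 0.14.

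Of 10 genes of efflux, storage and oxysterols, 4 rose and 1 fell, with a median of 0.12. The exporter gene Abca1 rose by 0.87 (SE 0.07, edgeR adjusted p 1.3e-06) and the lysosomal lipase gene Lipa by 0.57. Ch25h, cholesterol 25-hydroxylase, rose by 1.11 from a low level of 0.962 ± 0.344 CPM in WT (SD, n = 3). Abcg1, another sterol exporter, fell by 0.56, and Cyp7b1 was at 0.04 and did not pass. Without WT 2, 2 genes of this list fell.

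Isoprenoid branches and fatty acid synthesis were read in the same way. Of 11 isoprenoid genes, which draw on the product of Fdps, 1 fell and none rose, with a median of -0.05. That gene was Coq2 of ubiquinone synthesis (-0.37, edgeR adjusted p 0.0055), while Fnta, a prenyltransferase subunit, was at 0.01. Without WT 2, 2 isoprenoid genes rose. Of 11 fatty acid genes, 3 rose, 3 fell and the median was 0.06. These shares, 27.3% each way, were near those of all genes tested, so the count says little about the list. Scd1, Scd2 and Me1 rose by 0.24, 0.22 and 0.28. Acly, which makes the acetyl-CoA used for both lipids, had a log2 fold change of -0.23, Acss2 one of -0.30 and Lpin1 one of -0.16, and Fads2 was at -0.0035. The fatty acid genes that fell numbered 1 when either KO 3 or WT 1 was left out. Acss2 was lost in both fits (-0.26 and -0.27), and Lpin1 was lost without any library but WT 2 (-0.17 to -0.15).

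**Figure D4:**
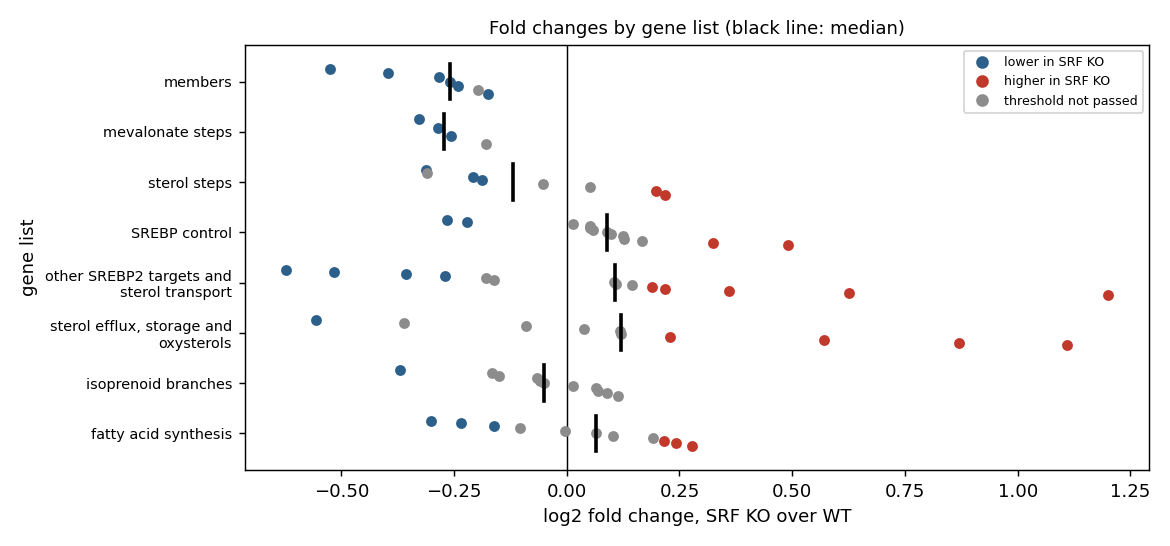
Each point is the log2 fold change of SRF KO over WT (horizontal axis) of 1 gene, by list, with the list median as a black line. The medians are -0.26 for the members, -0.27 for the other mevalonate genes and between -0.12 and 0.12 for the other 6 lists.

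Markers of cell types also differed between the groups. The counts of markers are to be set beside the 21.3% of all genes tested that fell and the 21.2% that rose. Of 8 markers of pluripotent cells, all were detected in every library, 4 fell and 1 rose, and their summed level was 4614 to 4714 CPM in SRF KO against 5491 to 5938 CPM in WT. All 11 tested markers of extraembryonic endoderm, of 12 listed, rose, with a summed level of 940.5 to 1035 CPM in SRF KO against 39.5 to 42.6 CPM in WT. Ttr had 0 counts in every WT library and Afp at most 3 counts in any library. All 10 fibroblast markers rose, from 389.8 to 440.5 CPM in WT to 772 to 924 CPM in SRF KO, none of them at 0 in any library. These marker levels differed between the same groups as the sterol enzyme genes. Their part in the falls of those genes was not tested, and these groups alone cannot separate it.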

How the data were processed

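Per the labels' protocols, TRIzol-extracted RNA was sequenced as paired reads of 150 bp, which were cleaned of adaptors and of poor or empty reads. The deposited table holds whole-number counts per gene and per transposable element subfamily, not normalized by the authors as judged from the values. Per the submitters' processing notes the build was mm10, and DESeq2 was used in a role that they do not state. The aligner, counting program, annotation and strand setting are not given in the sources used here, so reads shared with pseudogenes or overlapping genes are uncertain.

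All 15611 entries that passed filterByExpr (minimum count 10) were fitted together with TMM scaling and edgeR 4.0.16's quasi-likelihood test in R 4.3.3, with Benjamini-Hochberg adjustment over all entries and a threshold of 0.05. SE is the absolute log2 fold change over the root of the F statistic. Groups came from the sample titles. Lengths are exon unions from GENCODE M21 (GRCm38). The promoters are from RefSeq. One listed gene, Ufd1, was matched through its synonym. The scripts were tested on simulated counts for 15611 entries: edgeR recovered 94% of features changed by 1 and 77% of those changed by 0.5 on the log2 scale, with 3.93% false calls, and DESeq2 recovered 87% and 68%, with 3.12% false calls. The simulation gave all entries the same spread, changed 200 of them and held no library apart like WT 2. In the data 42.4% of genes passed, and all members but Hmgcs1 changed by less than 0.5. The simulated rates therefore need not hold for these calls. Replicate libraries differed by more than counting noise (chi-square per degree of freedom 1.79 to 14.6, highest for the pairs with WT 2).

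The members and lists were chosen with earlier results of these data known. Besides the 7 members and Srf, named genes are, per list, up to 3 with the smallest p in each direction past the threshold and the one with the largest p, plus the 5 genes with at least 50 mean counts closest in pattern to the members. Of the listed genes, 2 are not reported here and are left out of every list. Alternatives were DESeq2 1.42.0, RLE and total-count scaling, no filter, gene entries alone, a replicate block, a threshold of 0.01 and leaving out each library.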

Additional observations from a re-analysis of the deposited data

How the results depend on the processing

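All 7 members had a negative log2 fold change under all 13 alternatives. Hmgcs1, Fdps, Sqle and Lss passed the threshold in 13 of 13, Idi1 in 12, Cyp51 in 8 and Srebf2 in 3. Under total-count scaling Cyp51 was at -0.14 and did not pass, nor did it at an adjusted p under 0.01 (-0.18), a threshold that also lowered the genes called lower from 3141 to 2013. Srebf2 passed with no filter on low counts (-0.20). Across the 6 fits that each left out 1 library, Srebf2 was between -0.29 and -0.12, Idi1 between -0.28 and -0.18 and Cyp51 between -0.22 and -0.13, and the members called lower numbered 4 to 7. All genes called higher then numbered 2457 to 3652, those lower 2274 to 3809. The scalings moved the median of all genes by less than 0.1.

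Among other named genes, signs turned for genes near 0 that never passed. Fads2 was at 0.0063 under DESeq2, 0.0063 under RLE scaling and 0.033 under total-count scaling. Across the fits without 1 library it was between -0.059 and 0.041, Fnta between -0.018 and 0.039, Cyp7b1 between -0.17 and 0.18 and Ufd1 (Ufd1l in the table) between -0.0018 and 0.035. Under total-count scaling 5 genes of SREBP control (2 as reported) and 5 fatty acid genes (3 as reported) rose, 1 of the other sterol genes fell (3 as reported), and 0 of the genes after Cyp51 fell (2 as reported). DESeq2, and the fit with no filter, called 1 of the other sterol genes higher (2 as reported, each after Cyp51). DESeq2 called 1 fatty acid gene (3 as reported) and 1 gene after Cyp51 (2 as reported) lower. At an adjusted p under 0.01, 0 other sterol genes rose and 1 fell, 0 genes after Cyp51 rose or fell, and 1 fatty acid gene fell. The cause was not tested.

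Numbering in the labels was also tried as a pairing. Deviations from the group means correlated at 0.057, 0.38 and 0.24 between libraries of equal number, not all over 0.1. KO 2 and KO 3 correlated best with the WT library of their own number, and KO 1 with WT 3 (0.28). The pairing was therefore not used, which does not show that there is none. A replicate block gave 3659 higher and 3853 lower genes, Srebf2 (-0.19) and Mvd (-0.18) then passed, and 4 genes of SREBP control and 5 of fatty acid synthesis rose.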
